A study of Physcomitrium patens with 4 samples.

Results

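The gene Pp1s42_251V6 of the moss Physcomitrium patens is annotated in the deposited tables as CCR1, cold, circadian rhythm, and RNA binding 1, by its match to the Arabidopsis gene AT4G39260. It is 1 of the 18800 genes listed, and it was picked with its tag counts in these same libraries in view, so its levels are given as a description and carry no test. Digital gene expression profiling counted short sequence tags in 4 libraries, which hold freshly isolated protoplasts (t-0) and cells kept in culture for 24, 48 and 72 h (t-24, t-48 and t-72). All 4 came from a wild-type laboratory strain, whose protonemata, the filaments of the young moss plant, were digested with the wall-degrading enzyme mixture Driselase in mannitol. The t-24 cells had been kept in darkness, whereas the t-48 and t-72 cells had moved to a daily light-dark cycle, so that culture time and light cannot be told apart between 24 and 48 h. Each time point is a single library made from pooled RNA, with no replicate, and every interval given here covers counting error only.

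CCR1 of Arabidopsis, also called GRP8, and its close relative CCR2, also called GRP7, are small glycine-rich RNA-binding proteins with an RNA recognition motif (RRM) at the start of the chain and a glycine-rich tail. Their transcripts cycle with the circadian clock and accumulate in the cold, and both proteins bind their own and each other's pre-mRNA and change its splicing. These roles are known from Arabidopsis and are given as background for the moss gene, which carries the same annotation.

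CCR1 was among the most abundant transcripts of the culture. The gene had 6847 tags in t-0, 23375 in t-24, 3948 in t-48 and 13805 in t-72. The count was thus highest in the dark-grown t-24 cells, lowest in the t-48 cells, and high again in the t-72 cells. Per 1000000 gene tags this came to 3046 at 0 h (95% Wilson interval 2975 to 3119), 13356 at 24 h (13187 to 13527), 2010 at 48 h (1948 to 2074) and 5644 at 72 h (5551 to 5739). None of these intervals overlapped another. Among all genes, CCR1 stood at rank 5 at 0 h, rank 2 at 24 h, rank 51 at 48 h and rank 13 at 72 h. At 24 h its tags made up 1.34% of the library, and only Pp1s52_261V6, which has no symbol in the tables, had more, with 25237 tags. CCR1 is 1 of 8 genes that exceeded 1% of the tags of any library.

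The libraries differed in size and in how their tags were spread, which bears on every fold change of CCR1. Their gene tags summed to between 1750184 and 2445814, and 3 tags, taken as the floor of detection, corresponded to between 1.23 and 1.71 tags per 1000000. The 10 genes with the most tags took 24.2% of the t-72 library and 4.39% of the t-0 library, and the leading gene of both was the glutathione S-transferase gene GSTF9 (Pp1s66_172V6) with 236061 tags at 72 h and 26187 tags at 0 h. The leading gene of the t-48 library was the antenna protein gene LHCB2.2 (Pp1s213_80V6), with 31399 tags. Library sizes were therefore scaled with TMM, the trimmed mean of M-values, and on that scale CCR1 stood at 2578 tags per 1000000 in t-0, 10007 in t-24, 2200 in t-48 and 8133 in t-72. The order of the libraries for CCR1, from high to low 24, 72, 0 and 48 h, was the same on both scales. In bulk RNA, fewer cells with a transcript and less transcript per cell cannot be told apart.

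**Figure D1:**
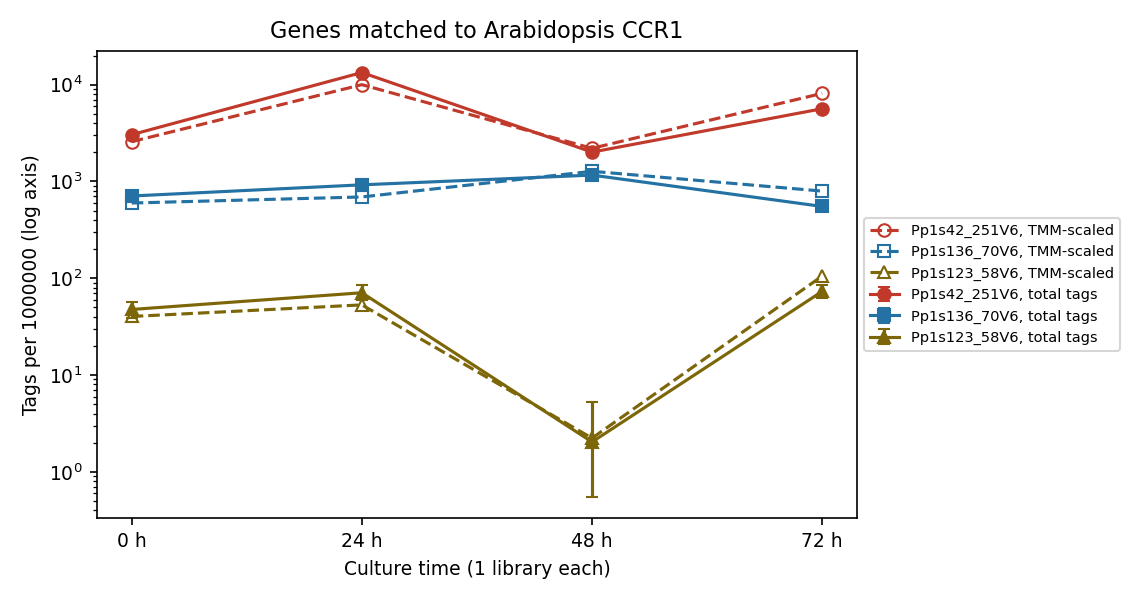
Level of CCR1 (Pp1s42_251V6) and of the other genes matched to Arabidopsis CCR1 at each culture time, in tags per 1000000 on a log axis, with filled symbols over total gene tags (bars, 95% exact Poisson interval for counting error) and open symbols after TMM scaling. CCR1 is highest at 24 h and lowest at 48 h on both scales, and its t-72 level lies closer to its t-24 level after TMM scaling (8133 against 10007) than over total tags (5644 against 13356).

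Between consecutive libraries CCR1 went up, down and up again. In t-24 cells it was 3.88-fold higher than in t-0 protoplasts (exact conditional 95% interval 3.78 to 3.99, log2 ratio 1.96). In t-48 cells it was 4.55-fold lower than in t-24 cells (4.40 to 4.71, log2 ratio -2.19). In t-72 cells it was 3.70-fold higher than in t-48 cells (3.57 to 3.83, log2 ratio 1.89). A change was counted as past 4-fold when the ratio was at least 4 either way with 100 tags or more in the higher library, and by this rule the drop at 48 h counted and the other steps, just under the limit, did not. The t-24 over t-0 ratio was past 4-fold under each of the 5 alternative scalings tried, at 4.04 to 4.38.

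Set against fresh protoplasts, CCR1 was close to its starting level at 48 h and above it at 72 h. The t-48 level was 1.17-fold lower than the t-0 level (1.13 to 1.22), and the t-72 level was 3.16-fold higher than the t-0 level (3.07 to 3.25). The t-72 level was 1.23-fold lower than the t-24 level (1.20 to 1.26). These last ratios depended on how the t-72 library was scaled. Over total gene tags, the t-72 level was 1.85-fold higher than the t-0 level and 2.37-fold lower than the t-24 level. Each of the 6 differences kept its direction under all 6 scalings.

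**Figure D2:**
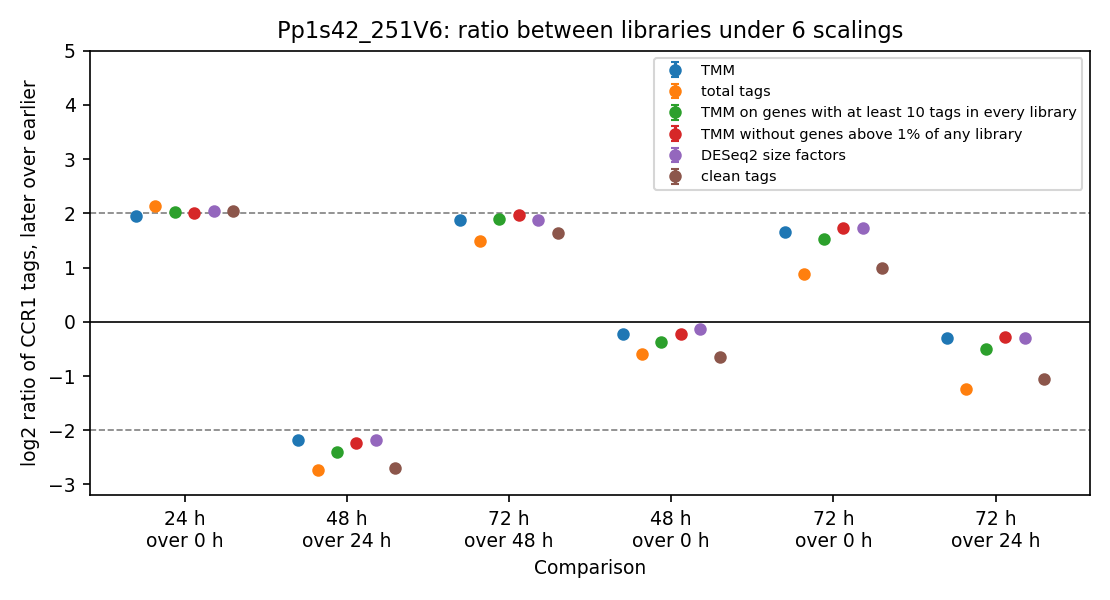
Ratio of CCR1 between pairs of libraries on a log2 axis, later over earlier, under TMM and 5 alternative scalings of library size. Points above 0 mark a higher level in the later library, and every pair keeps its side of 0. The ratios of the t-72 library to the t-0 and t-24 libraries spread most between scalings, from 1.85 to 3.33-fold higher and from 1.21 to 2.37-fold lower. Dashed lines mark 4-fold, and the 95% counting intervals are smaller than the points.

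The changes of CCR1 can be placed among those of all genes with at least 10 tags in the pair of libraries. Of 15077 genes in the t-24 over t-0 comparison, 2.44% were past 4-fold higher and 4.94% past 4-fold lower, and 9.38% had a larger log2 ratio than CCR1. Of 14312 genes in the t-48 over t-24 comparison, 7.50% were past 4-fold higher and 6.88% past 4-fold lower, and 23.2% had a lower ratio than CCR1. Of 12648 genes in the t-72 over t-48 comparison, 7.66% were past 4-fold higher and 7.12% past 4-fold lower, and 19.6% had a larger ratio than CCR1. Many of the genes beyond CCR1 were rare ones. Among the genes with at least 1000 tags in the higher library of the pair, 47 of 415 lay above CCR1 at 24 h, 41 of 418 lay below it at 48 h, and 166 of 517 lay above it at 72 h. The median log2 ratio of these abundant genes was -0.80 at 24 h and 1.59 at 48 h, on the other side of 0 from CCR1 both times.

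The time of the maximum was compared with that of other genes. Of 6700 genes with at least 100 tags in their highest library, 1185 (17.7%) had their maximum at 24 h, and 166 of them (2.48%), CCR1 included, had the same order of libraries as CCR1. Over total tags the maximum lay at 24 h for 1757 of the 6700 (26.2%). With at least 1000 tags, 60 of 718 genes peaked at 24 h after TMM scaling and 99 over total tags. With at least 5000 tags, 4 of 84 genes (6 over total tags) peaked at 24 h, CCR1 among them, against 36 at 48 h and 39 at 72 h. The range of CCR1 from its highest to its lowest library, 4.55-fold, was smaller than the median of 18.4-fold in the group of 84, where 6 genes had a smaller range. Over total tags its range was 6.64-fold against a median of 13.2-fold, and 19 of the 84 genes had a smaller one.

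The tables hold 2 further genes matched to AT4G39260, and none of the 3 is matched to CCR2. These 2 are called copies below by that match alone, since no sequences were compared. Pp1s136_70V6 had 1591 tags in t-0, 1616 in t-24, 2286 in t-48 and 1350 in t-72. It was highest at 48 h, where CCR1 was lowest, and in t-48 cells it was 1.84-fold higher than in t-24 cells (1.73 to 1.96). Pp1s123_58V6 was rare, with 107 tags in t-0, 124 in t-24, 4 in t-48 and 179 in t-72. It shared the low point at 48 h with CCR1 and was 23.8-fold lower there than in t-24 cells (9.07 to 88.8), then 47.3-fold higher in t-72 cells than in t-48 cells (18.2 to 176), both on the 4 tags of the t-48 library. Tags found in more than 1 gene had been removed before deposit, so sequence shared by near-identical copies does not count for any of them and their relative levels are uncertain.

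A ratio of tags within a library does not depend on scaling. For each tag of Pp1s136_70V6 there were 4.30 tags of CCR1 in t-0, 14.5 in t-24, 1.73 in t-48 and 10.2 in t-72. This ratio was 3.36-fold higher in t-24 cells than in t-0 protoplasts (95% interval 3.12 to 3.62), 8.38-fold lower in t-48 cells than in t-24 cells (7.79 to 9.0), and 5.92-fold higher in t-72 cells than in t-48 cells (5.49 to 6.39). The ratio thus moved in the same directions as CCR1 alone in the 3 steps, with no library size in the calculation. It also holds the changes of Pp1s136_70V6, which was 1.84-fold higher at 48 h and 1.60-fold lower at 72 h than in the library before. The ratio is therefore not a separate measure of CCR1. Against Pp1s123_58V6 the ratio was 2.95-fold higher in t-24 cells than in t-0 protoplasts (2.27 to 3.82). In the later steps it went the other way from CCR1 itself, since Pp1s123_58V6 varied more than CCR1, and was 5.24-fold higher in t-48 cells than in t-24 cells (1.93 to 14.2) and 12.8-fold lower in t-72 cells than in t-48 cells (4.75 to 34.5). In t-72 cells it was 1.21-fold higher than in t-0 protoplasts (0.947 to 1.53), a difference not detectable at this depth. CCR1 supplied 80.1% of the tags of the 3 genes at 0 h (Wilson interval 79.3 to 81.0), 93.1% at 24 h (92.8 to 93.4), 63.3% at 48 h (62.1 to 64.5) and 90.0% at 72 h (89.5 to 90.5).

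**Figure D3:**
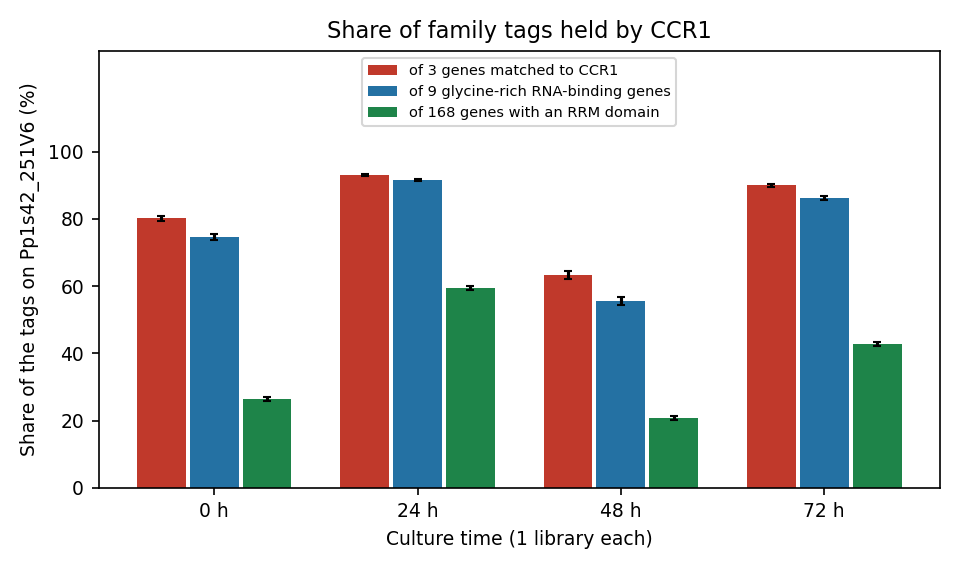
Share of tags carried by CCR1 within sets of related genes at each time of culture, in percent. The sets are the 3 genes matched to AT4G39260, the 9 glycine-rich RNA-binding genes and the 168 genes with the RRM domain PF00076. Bars are shares with 95% Wilson intervals. All shares are highest at 24 h and lowest at 48 h, and among the RRM-domain genes the share of this single gene lies between 20.7% and 59.4%.

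CCR1 was the leading gene of its wider protein family in every library. Among 168 genes annotated with the RRM domain PF00076, it carried 26.5% of the tags in t-0, 59.4% in t-24, 20.7% in t-48 and 42.8% in t-72. The other genes of that set had together 19018 tags in t-0, 15961 in t-24, 15150 in t-48 and 18473 in t-72. In raw counts the others together varied less between libraries than CCR1 did. The next gene was Pp1s136_70V6 except at 72 h, where the poly(A)-binding protein gene PAB2 (Pp1s51_110V6) had 5535 tags. Apart from its 2 copies, 1 gene, Pp1s43_205V6, shares the RRM domain, Panther family and KOG class of CCR1, and that gene carries a zinc finger domain besides.

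Of the 5 other glycine-rich RNA-binding genes with at least 100 tags in a library, 1, the copy Pp1s123_58V6, went up, down and up again as CCR1 did. Of all 6700 genes with at least 100 tags in their highest library, 1121 (16.7%) had this course, CCR1 included. The opposite course, down, up and down, was taken by 1463 of the 6700 (21.8%). Of the 8 other genes of the glycine-rich list, both copies included, 0 of 6 tested were past 4-fold higher and 1 lower in t-24 cells than in t-0 protoplasts. The step to t-48 cells had 1 higher and 1 lower of 7 tested, and the step to t-72 cells had 1 higher and 0 lower of 7. Over all genes tested, the shares higher and lower were 2.44% and 4.94%, 7.50% and 6.88%, and 7.66% and 7.12%. Their median log2 ratios were 0.30, 0.84 and -0.30 in the 3 steps, against -0.08, -0.30 and 0.01 over all genes tested. GRP4 (Pp1s112_25V6) moved opposite to CCR1, with 268 tags in t-0, 33 in t-24, 347 in t-48 and 266 in t-72. It was 7.14-fold lower in t-24 cells than in t-0 protoplasts (4.96 to 10.6) and 13.7-fold higher in t-48 cells than in t-24 cells (9.56 to 20.2). Of the genes annotated GR-RBP3, Pp1s45_280V6 held between 172 and 287 tags and was 2.47-fold higher in t-48 cells than in t-0 protoplasts (2.04 to 3.0). Pp1s143_11V6 held between 146 and 170 tags, and Pp1s118_100V6 had at most 3 tags. Pp1s118_101V6, which stayed below 100 tags, had 32 in t-0, 54 in t-24, 16 in t-48 and 54 in t-72. After TMM scaling Pp1s118_101V6 also went up, down and up again. ATRZ-1A (Pp1s128_53V6), a glycine-rich protein with a zinc finger, had 5 tags in t-0, 0 in t-24, 43 in t-48 and 2 in t-72.

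Cold shock domain proteins bind and unwind RNA and are known from Arabidopsis to act in the cold. Of 5 genes listed by description or by their match to such Arabidopsis genes, 4 were tested. By their annotated domains, Pp1s21_136V6 and Pp1s336_25V6 hold a zinc finger (PF00098) and no cold shock domain. Of the 4, 1 was past 4-fold higher at 48 h and 1 past 4-fold lower at 72 h, with 0 called at 24 h. Over all genes tested, 2.44% were higher and 4.94% lower at 24 h, 7.50% and 6.88% at 48 h, and 7.66% and 7.12% at 72 h. GRP2B (Pp1s64_4V6) had 113 tags in t-0, 76 in t-24, 545 in t-48 and 139 in t-72, and was 9.33-fold higher in t-48 cells than in t-24 cells (7.33 to 12), where CCR1 was lower. The genes annotated CSDP1 differed among themselves. Pp1s103_65V6 had 240 tags in t-0, 55 in t-24, 75 in t-48 and 182 in t-72. Pp1s21_136V6 had 191, 229, 201 and 47 tags in the same order and was 4.05-fold lower in t-72 cells than in t-48 cells (2.93 to 5.68), a call that was lost when genes above 1% of a library were left out of the scaling. Pp1s336_25V6 held between 79 and 206 tags, and Pp1s41_68V6 at most 2.

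**Figure D4:**
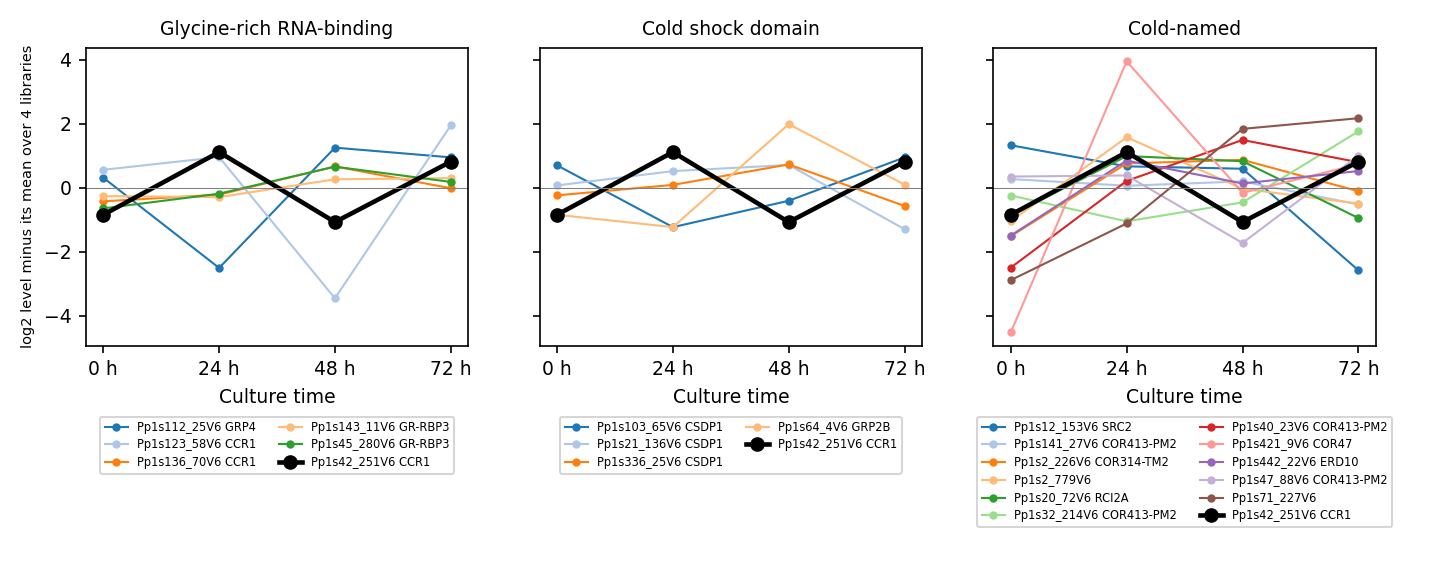
Centred log2 level (TMM-scaled, each gene minus its mean over the 4 libraries) of CCR1, in black, and of genes with at least 100 tags in a library. These genes are from the glycine-rich, cold shock domain and cold-named lists. GRP4 has its low point at 24 h, where CCR1 has its maximum, and Pp1s136_70V6 and GRP2B have their maximum at 48 h, where CCR1 has its minimum.

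A further 79 genes were described as RRM proteins. Relative to the library before, t-24 cells had 1 higher and 1 lower of 69 tested, t-48 cells had 1 higher and 5 lower of 66, and t-72 cells had 1 higher and 3 lower of 63, with median log2 ratios of -0.01, -0.41 and -0.32. Over all genes tested the shares were 2.44% higher and 4.94% lower at 24 h, 7.50% and 6.88% at 48 h, and 7.66% and 7.12% at 72 h, the shares against which each group of genes is to be read. Pp1s49_44V6 had 531 tags in t-0, 150 in t-24, 39 in t-48 and 968 in t-72, and was 26.2-fold higher in t-72 cells than in t-48 cells. Y14 (Pp1s31_259V6), a core subunit of the exon junction complex, was 30.9-fold lower in t-72 cells than in t-48 cells, with 7 against 229 tags. A second Y14 gene, Pp1s136_114V6, had 52 tags in t-0, 32 in t-24, 204 in t-48 and 105 in t-72. That gene was 8.30-fold higher in t-48 cells than in t-24 cells and 1.84-fold lower in t-72 cells than in t-48 cells. Pp1s4_67V6, with 52 tags at 48 h against 307 at 24 h, was 4.54-fold lower in t-48 cells than in t-24 cells. Pp1s63_172V6, with 47 tags at 72 h against 289 at 48 h, was 5.82-fold lower in t-72 cells than in t-48 cells. Defined by the PF00076 domain in place of the wording of the description, a choice made after the tables were seen, the set of 167 other genes had 1 higher and 3 lower of 149 tested in t-24 cells, 8 higher and 14 lower of 146 in t-48 cells, and 9 higher and 11 lower of 136 in t-72 cells, beside the same shares over all genes.

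Splicing factors and the Arabidopsis partners of GRP7 and GRP8 were examined as genes of the same process. Of 41 genes of splicing factors, 1 was past 4-fold higher and 0 lower of 38 tested in t-24 cells, 0 were higher and 5 lower of 37 in t-48 cells, and 0 were higher and 4 lower of 32 in t-72 cells. Over all genes tested, 2.44% were higher and 4.94% lower at 24 h, 7.50% higher and 6.88% lower at 48 h, and 7.66% and 7.12% at 72 h. The median log2 ratios of the splicing factors were -0.09, -0.38 and 0.84, against -0.08, -0.30 and 0.01 over all genes tested. At 72 h the 4 genes called lower thus went against the median of their list. The 4 lower at 72 h were RSZ33 (Pp1s69_23V6, 10.1-fold), SCL30A (Pp1s270_54V6, 4.92-fold), a second SCL30A (Pp1s183_39V6, 4.42-fold) and SR45 (Pp1s35_281V6, 5.79-fold), all serine- and arginine-rich proteins of splice site choice, relative to the t-48 cells in which CCR1 was at its lowest. Of 12 partner genes, 0 passed 4-fold in t-24 cells, 1 was higher and 1 lower in t-48 cells, and 2 were higher and 1 lower of 11 tested in t-72 cells, with median log2 ratios of 0.39, -0.72 and 0.56. Over all genes tested the shares were 7.50% higher and 6.88% lower at 48 h and 7.66% and 7.12% at 72 h. CBP20 (Pp1s105_41V6), the small subunit of the nuclear cap-binding complex, had 189 tags in t-0, 213 in t-24, 96 in t-48 and 409 in t-72, and was 4.50-fold higher in t-72 cells than in t-48 cells. SKB1 (Pp1s163_66V6), the arginine methyltransferase that modifies GRP7 in Arabidopsis, was 12.9-fold higher in t-72 cells than in t-48 cells, with 159 against 13 tags. The zinc finger gene SE (Pp1s389_45V6), whose product works in microRNA processing, was 27.5-fold lower in t-48 cells, which had 7 tags of it, than in t-24 cells. ABH1 (Pp1s41_19V6), the large cap-binding subunit, was 45.9-fold higher in t-48 cells than in t-24 cells, with 141 against 4 tags, and 4.04-fold lower in t-72 cells than in t-48 cells, a call lost when genes above 1% of a library were left out of the scaling.

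The name of CCR1 refers to the clock and to cold. Of 37 genes of the clock and of light input, 2 were past 4-fold higher and 3 lower of 34 tested in t-24 cells, 3 were higher and 6 lower of 34 in t-48 cells, and 1 was higher and 2 lower of 28 in t-72 cells, with median log2 ratios of -0.27, -0.88 and -0.07. Over all genes tested, the shares higher and lower were 2.44% and 4.94%, 7.50% and 6.88%, and 7.66% and 7.12% in the 3 steps. PRR7 (Pp1s412_35V6), a pseudo-response regulator of the clock, had 63 tags in t-0, 129 in t-24, 12 in t-48 and 171 in t-72. Like CCR1 it was lower in t-48 cells than in t-24 cells (8.26-fold, 4.57 to 16.4) and higher in t-72 cells than in t-48 cells (15.1-fold, 8.40 to 29.7). HY5 (Pp1s80_72V6), a transcription factor of light signalling, had 97 tags in t-0, 180 in t-24, 14 in t-48 and 85 in t-72, and was 9.88-fold lower in t-48 cells than in t-24 cells (5.74 to 18.4). The blue light receptor gene CRY1 (Pp1s2_368V6) had 219 tags in t-0, 76 in t-24, 329 in t-48 and 97 in t-72, and was 5.64-fold higher in t-48 cells than in t-24 cells (4.38 to 7.33). XCT (Pp1s98_15V6), a clock gene, had 514 tags in t-0, 102 in t-24, 18 in t-48 and 24 in t-72, and was 4.43-fold lower in t-24 cells than in t-0 protoplasts.

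Of 13 genes named for cold or listed by Arabidopsis match, 5 were past 4-fold higher and 0 lower in t-24 than in t-0. The median log2 ratio of the 13 was 1.80, against -0.08 over all genes tested, of which 2.44% were past 4-fold higher. Of the 13, 9 reached the 100 tags that a call needs in that comparison, whereas the share over all genes tested includes genes below it. In t-48 cells 1 was higher and 2 lower than in t-24 cells, and in t-72 cells 2 were higher and 1 lower than in t-48 cells, with medians of -0.16 and 0.33. Over all genes tested, 4.94% were lower at 24 h, 7.50% higher and 6.88% lower at 48 h, and 7.66% and 7.12% at 72 h. The medians over all genes tested were -0.30 at 48 h and 0.01 at 72 h. COR413-PM2 (Pp1s47_88V6), a cold-regulated membrane protein gene, had 4167 tags in t-0, 3751 in t-24, 668 in t-48 and 4189 in t-72. It was 4.31-fold lower in t-48 cells than in t-24 cells (3.97 to 4.69) and 6.63-fold higher in t-72 cells than in t-48 cells (6.11 to 7.20), in the same directions as CCR1, but it did not share the high level of CCR1 at 24 h relative to 0 h. ERD10 (Pp1s442_22V6), a dehydrin gene listed by its match to AT1G20450, had 346 tags in t-0, 1541 in t-24, 721 in t-48 and 893 in t-72. It was 5.07-fold higher in t-24 cells than in t-0 protoplasts (4.50 to 5.71). COR314-TM2 (Pp1s2_226V6) was 4.82-fold higher (4.42 to 5.26) and Pp1s2_779V6 6.15-fold higher (5.51 to 6.87) in the same comparison.

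Photosynthesis genes, listed as markers of the green protonema cells from which the protoplasts were made, were highest in the library where CCR1 was lowest. For 6 of 10 marker symbols, 36 genes were found, and per 1000000 gene tags they summed to 9069 in t-0, 2791 in t-24, 41669 in t-48 and 4382 in t-72. All 6 symbols were highest in t-48. The sum was lowest in t-24, where CCR1 was highest, but the symbols differed there. Over total tags LHCB5 and PSBO2 were lowest in t-24 and the other 4 in t-72, and after TMM scaling 4 were lowest in t-24 and 2, PSAF and RBCS1A, in t-72. Between 29 and 34 of the 36 genes had tags in each library, also in the t-24 cells, which had been kept in darkness. Their presence does not by itself identify a cell type. The part of these genes in the level of CCR1 was not tested.

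The genes whose course was most like that of CCR1 were much rarer than CCR1. Likeness was measured as the Euclidean distance between centred log2 levels over the 4 libraries, among 6699 other genes with at least 100 tags in their highest library, where the median distance was 2.96. Nearest came Pp1s36_174V6, a protein-protein interaction regulator, with 77 tags in t-0, 248 in t-24, 36 in t-48 and 120 in t-72, at a distance of 0.301. Among the 8 nearest annotated genes, of which 7 are described, it was followed by the alpha/beta-hydrolase gene Pp1s52_217V6 (distance 0.303), the major facilitator gene Pp1s105_45V6 (0.331), the ribosomal protein S7e gene Pp1s365_30V6 (0.373), the potassium antiporter gene KEA4 (Pp1s81_93V6, 0.391), GC1 (Pp1s266_51V6, 0.447) and the protein phosphatase 2C gene Pp1s280_26V6 (0.451). Of these, Pp1s365_30V6 had the most tags, with 159 in t-0, 459 in t-24, 71 in t-48 and 345 in t-72. All 7 had their minimum at 48 h, 6 had their maximum at 24 h, and Pp1s365_30V6 had it at 72 h. For Pp1s52_217V6 these levels were nearly equal, at 46.7 TMM-scaled tags per 1000000 in t-24 and 46.5 in t-72.

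Some abundant genes also followed CCR1, at larger distances. With at least 1000 tags required, the nearest was Pp1s1_365V6, an adenine nucleotide alpha hydrolase-like gene, with 323 tags in t-0, 1079 in t-24, 122 in t-48 and 588 in t-72 and a distance of 0.486. The aconitase gene ACO3 (Pp1s131_178V6) stood at 0.794 and the plastid outer envelope gene ATOEP16-2 (Pp1s157_44V6) at 0.846, the last with 1945 tags in t-0, 6454 in t-24, 1075 in t-48 and 1947 in t-72. Of the gene groups above, the splicing factor SC35 (Pp1s42_165V6) came nearest, at rank 11 and a distance of 0.483, with 47, 113, 17 and 72 tags from 0 to 72 h. TRN1 (Pp1s15_486V6), the import receptor of GRP7 in Arabidopsis, stood at 1.21, HY5 at 1.40 and ERD10 at 1.42. The abundant copy Pp1s136_70V6 stood at 2.38, at rank 1976. With 4 libraries, likeness describes their order and size and says nothing of shared function.

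**Figure D5:**
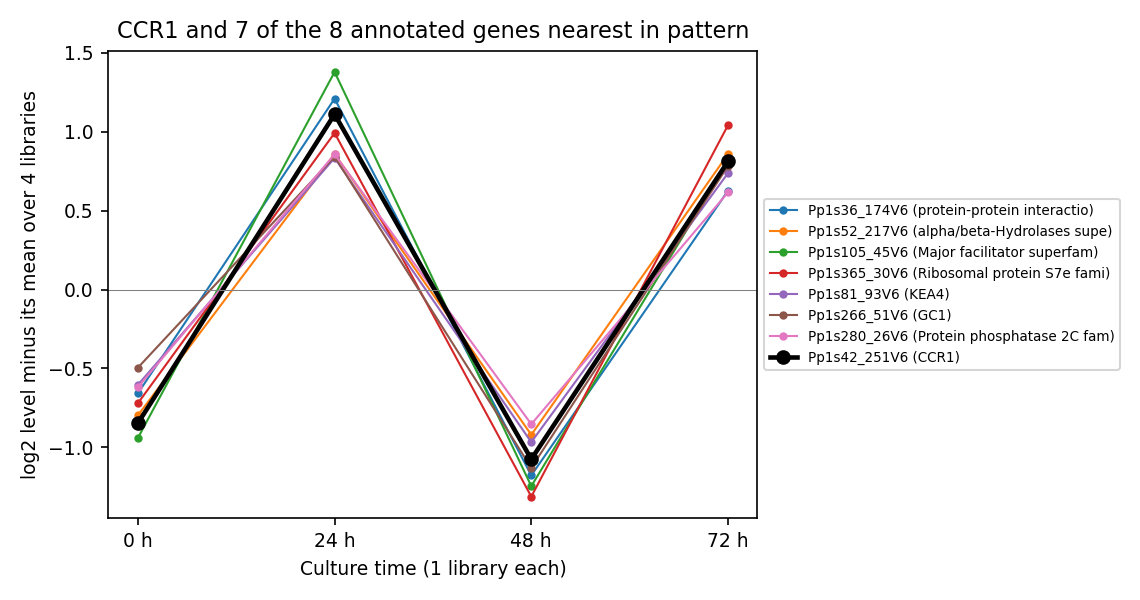
Centred log2 level of CCR1 and of 7 of the 8 annotated genes nearest to it at 0, 24, 48 and 72 h, with 1 library per time point. All lines have their minimum at 48 h and stand high at 24 and 72 h, at distances of 0.301 to 0.451 from CCR1.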

How the data were processed

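Tag libraries of protoplasts at 0, 24, 48 and 72 h were analysed, with 1 pooled library per time point. Before deposit the authors discarded adaptor, low-quality and single-copy tags, aligned what was left to moss gene sequences in Bowtie (up to 1 mismatch), dropped tags that hit several genes, and summed the others into counts for 18800 genes. A second deposited column, headed TPM, was treated as a score, since its values equal tags per 100000 clean tags, and it served only to recover the number of clean tags. By that number, the gene counts held 63.8% to 72.5% of the clean tags of a library.

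Library sizes were scaled by TMM, with factors of 1.18, 1.33, 0.914 and 0.694 in the order of time. Ratios of CCR1 were taken over scaled sizes with exact conditional (Clopper-Pearson) 95% intervals, and ratios of ratios with intervals on the log scale. Log2 ratios carry a prior count of 0.5. Genes with at least 10 tags in the pair, called tested in the text, were compared with a limit of 4-fold and 100 tags in the higher library, and a count of 0 was placed at 3 tags per library. No p-value was computed, because no spread between cultures was measured. CCR1, the gene lists and the rules were chosen with earlier results of these data known. The genes named are CCR1, the genes matched to AT4G39260 or AT2G21660, the glycine-rich and cold shock domain lists, up to 4 members past 4-fold with the most tags of each other list, the 8 nearest annotated genes, of which 1 is not reported here, and the leading gene of each library. Any other gene was chosen after its values were seen, among them PAB2, SC35, TRN1 and the nearest genes with at least 1000 tags. Alternatives were 5 other scalings, minimums of 30 and 10 tags, and other measures of likeness. The calculations were tested on simulated data. Counts were handled in Python 3.11.15 (pandas 2.3.3, numpy 2.4.6), intervals came from scipy 1.17.1, scaling from edgeR 4.0.16 and DESeq2 1.42.0 under R 4.3.3, and plots from matplotlib 3.10.9.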

Additional observations from a re-analysis of the deposited data

How the results depend on the processing

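The level of CCR1 in t-24 cells over t-0 protoplasts was 4.38-fold higher over total tags, 4.10-fold with TMM on genes holding 10 tags or more in each library, 4.04-fold with TMM without genes above 1% of any library, 4.12-fold with DESeq2 size factors and 4.13-fold over clean tags. With the same scalings in the same order, leaving out those that moved the value by less than its counting error, the t-48 level was 6.64, 5.29, 4.73 and, over clean tags, 6.45-fold lower than the t-24 level. The t-72 level was 2.81-fold higher than the t-48 level over total tags, 3.90-fold without genes above 1% and 3.10-fold over clean tags. The t-48 level was 1.52-fold lower than the t-0 level over total tags, 1.29-fold with TMM on genes with at least 10 tags, 1.098-fold with DESeq2 and 1.56-fold over clean tags. The t-72 level was 1.85, 2.89, 3.32, 3.33 and 1.98-fold higher than the t-0 level under the 5 alternatives in the order above. It was 2.37-fold lower than the t-24 level over total tags, 1.42-fold with TMM on genes with at least 10 tags and 2.08-fold over clean tags. No direction of CCR1 changed in any of these.

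With a minimum of 30 tags, or of 10, in the higher library, 814 or 1378 genes were past 4-fold higher and 1314 or 1746 lower at 24 h, 1730 or 2186 higher and 2309 or 3215 lower at 48 h, and 1667 or 2292 higher and 1641 or 2124 lower at 72 h, since rarer genes entered. Over total tags, 750 genes were past 4-fold higher and 1323 lower at 48 h, against 1074 and 985 with TMM, and 783 higher and 1118 lower at 72 h, against 969 and 901. Over clean tags the split at 48 h was 769 higher and 1294 lower. Total tags moved the median log2 ratio of all genes by 0.17, -0.54 and -0.39 in the 3 steps. Of 114 counts for gene lists under the alternatives, 92 stayed within 1.5 times and 22 did not. The distance between 2 genes does not depend on the scaling of libraries, so the 5 other scalings could not change the 8 nearest genes. Of the 8, 4 were kept with Pearson's r, 5 with a prior count of 5 and 0 with a minimum of 1000 tags. None of the 8 reaches 1000 tags. With 1 library per time point, the spread between cultures is unknown and no replicate could be left out. No paired analysis was possible because each time point has 1 library.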

Other observations

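CCA1 and LHY are the Arabidopsis morning genes of the clock, whose proteins repress evening genes. After TMM scaling their moss matches went down, up and down, as did 1463 (21.8%) of the 6700 genes with at least 100 tags. CCA1 and LHY were chosen after their values were seen. CCA1 (Pp1s96_165V6) had 103 tags in t-0, 0 in t-24, 97 in t-48 and 4 in t-72, and was at least 30.2-fold lower in t-24 cells than in t-0 protoplasts with the count of 0 placed at 3 tags. LHY (Pp1s325_68V6) had 76 tags in t-0, 57 in t-24, 202 in t-48 and 0 in t-72. It was 4.61-fold higher in t-48 cells than in t-24 cells and at least 63.7-fold lower in t-72 cells than in t-48 cells. CCR1 was high in the libraries at 24 and 72 h and lower in the libraries at 0 and 48 h. CCA1 was low or had no tags at 24 and 72 h. LHY had no tags at 72 h, but its 57 tags at 24 h stood near its 76 tags at 0 h. The hour of day of each harvest was not used here, so these values are given with no reading of phase.

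Of the other genes of KOG class KOG0107, to which CCR1 belongs, RSZ33 (Pp1s69_23V6) had 299 tags in t-0, 148 in t-24, 351 in t-48 and 33 in t-72. It was lower at 24 and 72 h than at 0 and 48 h, the reverse of CCR1. Going down, up and down was the course of 1463 of 6700 genes with at least 100 tags (21.8%). The second RSZ33 (Pp1s9_310V6) had 67, 47, 27 and 76 tags in the same order, and Pp1s43_205V6 had 79, 112, 26 and 7 tags. SRZ-22 (Pp1s207_102V6) had 4, 17, 0 and 0 tags.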
